A study of Mus musculus with 23 samples.

Results

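The regions described here are 9022 new distal H3K27ac sites of Ebf2-EGFP+ cells at E15.5, out of 25793 H3K27ac peaks listed for these cells at that stage. They were chosen by position and by absence from the earlier lists. A site had to be under 1000 bp wide, lie on chromosomes 1 to 19 or X, lie over 5 kb from the 5′ end (transcription start site, TSS) of every protein-coding gene, and share no base with an H3K27ac peak of Ebf2-EGFP+ cells at E11.5 or E13.5. Of the 25793 peaks, 13256 met the limits of width and distance, and the new sites made up 68.1% of these. The other 4234 distal sites had been listed before, 2348 at E13.5 only, 790 at E11.5 only and 1096 at both stages, and serve as the comparison throughout.

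The cells came from the cerebral cortex of Tg(Ebf2-EGFP)FB58Gsat mouse embryos, which all groups share, and were sorted by green fluorescence. EGFP is driven by regulatory sequence of Ebf2 in this line, so the positive gate holds cells with transgene activity, and its make-up changes with age. At E11.5 the Ebf2-EGFP+ cells are mostly preplate neurons, by E15.5 mostly Cajal-Retzius (CR) cells, and the E11.5 Ebf2-EGFP- cells are mainly progenitors. H3K27ac and H3K27me3 were profiled by ChIP-seq at each of these ages and at E13.5 in Ebf2-EGFP+ cells, and at E11.5 alone in Ebf2-EGFP- cells, with 2 libraries of each mark and cell group, except 1 for H3K27ac in Ebf2-EGFP- cells. One peak list was deposited for each mark and cell group, with no read counts and no peak scores, so depth is unknown and presence or absence in a list is the only measurement. How many embryos made up a library is not given in the labels. Error between replicates could not be estimated, and stages could not be tested against each other. Intervals below are Wilson 95% intervals, which cover counting over sites or genes only. Neighbouring sites are not independent.

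H3K27ac, an acetyl group on the tail of histone H3, marks promoters and enhancers in use, and enhancers far from genes are the elements whose use differs most between cell types. H3K27me3 is methylation of the same residue. It is the mark of Polycomb repression and is often found at developmental genes rich in CpG dinucleotides. CR cells are among the first neurons of the cortex, settle in layer 1 at its surface and secrete Reelin, which guides the layering of later neurons.

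The new sites were poorer in CpG dinucleotides than the other distal sites, while a minority was rich in them. Sequences of 8 new sites are therefore given first. Among the CR and layer 1 genes they are 1 of the 2 members nearest to Ebf3 and the members nearest to Lhx1, Nhlh2 and Sncb. The rest are 2 of the 5 widest sites (nearest to Nfib and Mef2c), and 2 of the 5 widest sites with H3K27me3 in progenitors (Ptma and Bcor). Each is the central 200 bases on the plus strand of GRCm38.p6, the assembly behind mm10, read from the reference genome, with CpG dinucleotides in capitals.
Ebf3, intron, chr7:137300030-137300229: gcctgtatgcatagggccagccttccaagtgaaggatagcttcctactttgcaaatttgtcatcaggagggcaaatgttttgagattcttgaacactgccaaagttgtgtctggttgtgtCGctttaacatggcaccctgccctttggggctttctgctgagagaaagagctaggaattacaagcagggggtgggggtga
Lhx1, intergenic, chr11:84549725-84549924: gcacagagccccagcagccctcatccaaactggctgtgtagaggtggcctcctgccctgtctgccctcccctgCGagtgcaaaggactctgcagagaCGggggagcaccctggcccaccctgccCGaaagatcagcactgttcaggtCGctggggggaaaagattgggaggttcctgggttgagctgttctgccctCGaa
Nhlh2, intergenic, chr3:102028136-102028335: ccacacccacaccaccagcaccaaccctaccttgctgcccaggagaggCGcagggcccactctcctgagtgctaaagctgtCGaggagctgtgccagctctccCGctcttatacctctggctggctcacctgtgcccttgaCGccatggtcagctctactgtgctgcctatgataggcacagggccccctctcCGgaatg
Sncb, intergenic, chr13:54758315-54758514: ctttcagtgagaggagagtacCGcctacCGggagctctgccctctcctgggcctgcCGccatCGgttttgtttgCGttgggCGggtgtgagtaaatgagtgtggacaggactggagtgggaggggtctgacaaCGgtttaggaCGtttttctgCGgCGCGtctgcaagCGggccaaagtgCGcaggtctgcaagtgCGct
Nfib, exon, chr4:82498231-82498430: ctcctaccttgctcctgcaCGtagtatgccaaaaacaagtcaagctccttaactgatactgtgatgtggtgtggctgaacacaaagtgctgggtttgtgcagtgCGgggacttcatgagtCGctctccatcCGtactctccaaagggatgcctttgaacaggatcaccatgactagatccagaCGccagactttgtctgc
Mef2c, intron of a non-coding gene, chr13:83727221-83727420: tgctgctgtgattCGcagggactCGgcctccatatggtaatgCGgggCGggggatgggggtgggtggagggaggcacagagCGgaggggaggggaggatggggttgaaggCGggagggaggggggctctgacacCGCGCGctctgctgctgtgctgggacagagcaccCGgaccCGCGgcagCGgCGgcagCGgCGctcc
Ptma, intergenic, chr1:86504094-86504293: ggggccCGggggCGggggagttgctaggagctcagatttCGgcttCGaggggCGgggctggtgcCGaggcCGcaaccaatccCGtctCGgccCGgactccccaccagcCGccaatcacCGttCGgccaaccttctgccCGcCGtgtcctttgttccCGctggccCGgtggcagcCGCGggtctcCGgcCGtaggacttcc
Bcor, intron, chrX:12088460-12088659: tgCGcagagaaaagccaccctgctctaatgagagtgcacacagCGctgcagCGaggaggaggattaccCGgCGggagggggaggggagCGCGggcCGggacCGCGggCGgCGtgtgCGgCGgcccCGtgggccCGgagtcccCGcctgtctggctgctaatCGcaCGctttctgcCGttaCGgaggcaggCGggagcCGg
The Ebf3 site shown held 1 CpG, and those of Lhx1, Nhlh2 and Nfib held 5 each. The other Ebf3 site, not shown, held 10 in its central 200 bases. The Sncb site held 14, the Mef2c site 16, the Ptma site 21 and the Bcor site 23.

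A further 5 sequences show the letters that were searched for in all sites. Capitals mark matches on either strand to CAGATG or CAGCTG (E-boxes, bound by basic helix-loop-helix factors), TAATTA (a core bound by many homeodomain factors) and TCCC followed after 2 bases by GGGA (the palindrome bound by Ebf factors). The Calb2, Ppp2r2c and Jph3 sites belong to CR or layer 1 genes and are shown because they held a match. In the central 200 bases of the Ebf3, Lhx1, Nhlh2, Slit1 and Sncb sites, and in the other Jph3 site, there was none. Over 300 bases the Lhx1 site held 1 CAGATG and the Sncb site 1 CAGCTG. The Dync1h1 window of 300 bases held the most Ebf palindrome matches, and the Etv4 window is the widest site with 1.
Calb2, intergenic, chr8:110183944-110184143: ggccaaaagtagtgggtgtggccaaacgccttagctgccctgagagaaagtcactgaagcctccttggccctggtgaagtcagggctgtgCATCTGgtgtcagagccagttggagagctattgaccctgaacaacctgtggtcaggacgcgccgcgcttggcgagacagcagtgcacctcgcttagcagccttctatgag
Ppp2r2c, intron, chr5:36874627-36874812: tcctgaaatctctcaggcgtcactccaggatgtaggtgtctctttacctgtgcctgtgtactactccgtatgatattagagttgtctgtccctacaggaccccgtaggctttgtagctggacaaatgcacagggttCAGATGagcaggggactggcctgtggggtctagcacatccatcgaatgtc
Jph3, intron, chr8:121750399-121750594: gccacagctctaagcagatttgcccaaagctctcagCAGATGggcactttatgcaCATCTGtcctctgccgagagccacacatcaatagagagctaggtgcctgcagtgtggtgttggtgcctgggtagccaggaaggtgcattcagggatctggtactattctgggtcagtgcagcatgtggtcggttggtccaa
Dync1h1, intron, chr12:110532116-110532415: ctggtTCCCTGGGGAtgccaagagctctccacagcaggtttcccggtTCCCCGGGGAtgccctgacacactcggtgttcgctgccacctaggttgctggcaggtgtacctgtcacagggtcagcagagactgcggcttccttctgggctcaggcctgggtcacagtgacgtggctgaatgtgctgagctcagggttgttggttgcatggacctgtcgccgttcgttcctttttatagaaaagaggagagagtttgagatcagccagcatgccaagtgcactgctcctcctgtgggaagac
Etv4, intergenic, chr11:101799830-101800129: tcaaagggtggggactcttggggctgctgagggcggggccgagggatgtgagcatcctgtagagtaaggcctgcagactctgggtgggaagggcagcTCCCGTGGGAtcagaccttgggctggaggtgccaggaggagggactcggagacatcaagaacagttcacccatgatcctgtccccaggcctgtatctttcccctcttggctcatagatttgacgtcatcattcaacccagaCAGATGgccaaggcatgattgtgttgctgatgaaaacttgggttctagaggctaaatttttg
The Dync1h1 window held 2 Ebf palindrome matches and was the only site with more than 1. The Jph3 site held 2 CAGATG matches in opposite orientation and the Calb2 and Ppp2r2c sites 1 each.

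The new sites were narrow. Their median width was 219 bp (quartiles 191 and 265 bp, range 184 to 956 bp), against 263 bp for the other distal sites (quartiles 208 and 363 bp). The narrowest peak of the whole E15.5 list had 184 bp, and 1654 new sites (18.3%, 95% CI 17.5 to 19.1) had that width, against 9.23% of the other distal sites (CI 8.40 to 10.1). At 300 bp or more were 15.2% of new sites (CI 14.5 to 16.0) and 38.4% of the others (CI 36.9 to 39.8). Wider peaks more easily share a base with an earlier peak, so the rule itself favours narrow peaks among the new sites. How much of the difference in width came from this was not tested. Peak height was not in the lists, so whether the narrow sites were also weak was not tested.

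**Figure D1:**
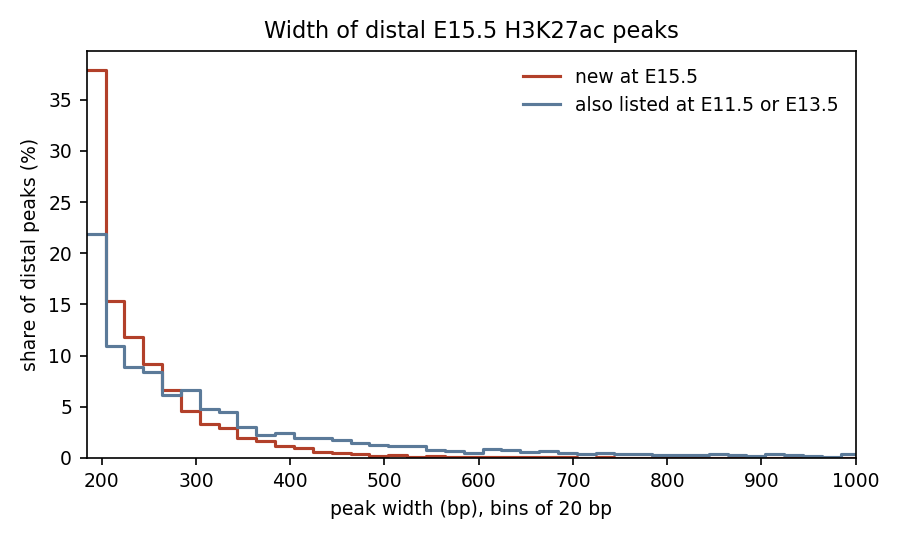
Share of distal E15.5 H3K27ac peaks (y axis, %) by peak width in bins of 20 bp (x axis, 184 to 1000 bp), for the 9022 new sites (red) and the 4234 sites also listed at E11.5 or E13.5 (blue). New sites pile up at the smallest widths, with a median of 219 bp against 263 bp. Wide peaks more easily overlap an earlier peak, so the rule itself favours narrow new sites.

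The limits of the rule cut through a continuous range of peaks. The widest new site had 956 bp, and the first peaks outside the width limit had 1032, 1057 and 1097 bp. In all, 6 peaks met every other criterion but were too wide. The new sites closest to a TSS lay 5001 bp from Gm43517 and 5007 bp from Mical2, and the closest peaks left out lay 4997 bp from Zfp607a and 4993 bp from Trim25. Because of distance alone, 3293 peaks were left out. On the side of the earlier lists, 37 new sites lay within 10 bp of an earlier peak, while 38 of the other distal sites overlapped earlier peaks by 10 bp or less.

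The 5 widest new sites lay on 5 chromosomes, at 6.48 to 223 kb from the nearest protein-coding TSS. The widest, of 956 bp at chr13:83726843-83727798, lay 223 kb from the TSS of Mef2c, a transcription factor of cortical neurons, in an intron of a gene that is not protein-coding. The others were a site of 895 bp at chr8:105693726-105694620, in an exon of Carmil2 and 6.48 kb from the TSS of Acd, 891 bp at chr16:94724086-94724976, 154 kb from Dyrk1a, 856 bp at chr4:82497903-82498758 in Nfib, and 811 bp at chr1:86503789-86504599, 22.1 kb from Ptma. Nfib encodes a nuclear factor I protein of cortical neurons and glia, Dyrk1a a protein kinase, and Ptma the abundant nuclear protein prothymosin alpha. The Acd and Ptma sites had H3K27me3 in progenitors and the other 3 did not.

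Most new sites had an earlier H3K27ac peak in the neighbourhood, though none on the site itself. The nearest E11.5 or E13.5 peak lay at a median of 4.25 kb (quartiles 1.33 and 10.9 kb). It lay within 1 kb for 20.4% of new sites (CI 19.6 to 21.3), within 5 kb for 54.1% (CI 53.1 to 55.1) and within 50 kb for 96.0% (CI 95.6 to 96.4). These distances rest largely on the E13.5 list, which held 102881 peaks over 23.2 Mb, against 37055 peaks over 10.1 Mb at E11.5. Within 5 kb there was an E13.5 peak for 48.5% of new sites and an E11.5 peak for 23.2%. A total of 2453 sites lay over 10 kb from every earlier peak. The same shares were not computed for other positions in the genome. The values therefore do not show a preference of new sites for the neighbourhood of earlier peaks.

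**Figure D2:**
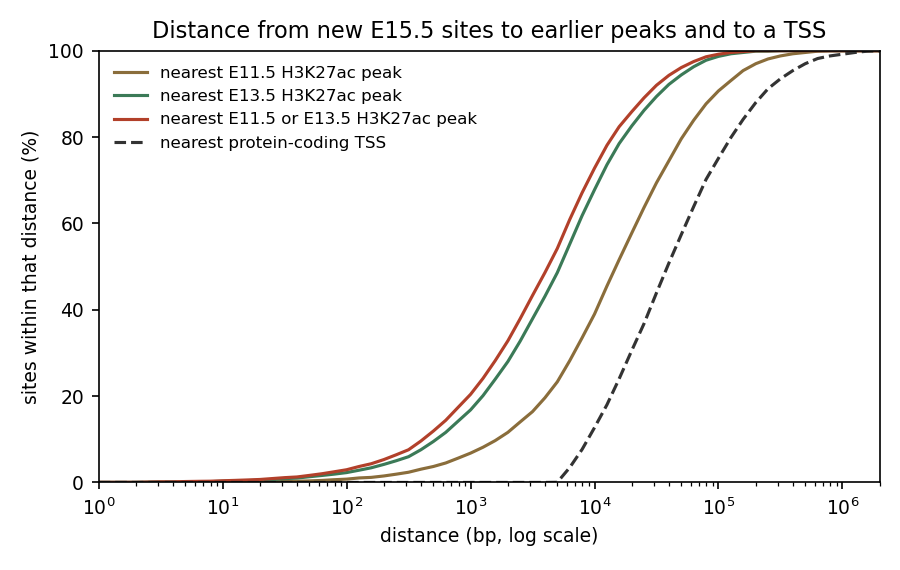
Share of the 9022 new sites (y axis, %) within a given distance (x axis, bp, log scale) of the nearest H3K27ac peak of Ebf2-EGFP+ cells at the first, the second or either earlier stage (E11.5 and E13.5, solid lines), and of the nearest protein-coding TSS (dashed). The curve for either stage passes 54.1% at 5 kb, and that for E11.5 alone 23.2%.

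New sites close to earlier peaks differed from those far from them in several ways. Of the 1842 within 1 kb of an earlier peak, 22.8% had their centre in an exon (CI 20.9 to 24.8) and 6.41% had at least 50% of their bases repeat-masked (CI 5.38 to 7.62). Of the 2453 beyond 10 kb, 9.70% lay in an exon (CI 8.59 to 10.9) and 25.6% had at least 50% of their bases repeat-masked (CI 23.9 to 27.4). Another E15.5 H3K27ac peak lay within 5 kb of 28.6% of the former (CI 26.5 to 30.7) and 5.14% of the latter (CI 4.33 to 6.08). The isolated sites thus lay outside exons and among repeats more often. Their lower share with an E15.5 neighbour follows in part from the split itself. An E15.5 peak that overlaps an earlier peak can lie within 5 kb of an isolated site only if it is very wide.

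By position, the new sites were mainly intronic and intergenic. Introns of any annotated gene held the centre of 48.2% (CI 47.2 to 49.3), intergenic sequence 37.1% (CI 36.1 to 38.1) and exons 14.7% (CI 13.9 to 15.4). Of the 2360 Mb of sequence over 5 kb from a protein-coding TSS, introns take 42.2%, intergenic sequence 53.8% and exons 4.08%. The other distal sites were in exons more often (26.5%, CI 25.1 to 27.8) and in introns less often (38.4%, CI 36.9 to 39.9). In each width class the new sites kept the higher intron share. It was 48.4%, 48.3% and 48.1% at 184 bp, 185 to 299 bp and 300 bp or more, against 42.2%, 40.8% and 34.2% of the other distal sites. The order holds for values only, since no test was run.

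A TSS of a protein-coding gene lay at a median of 38.7 kb from a new site (quartiles 16.6 and 99.1 kb), close to the 36.2 kb of the other distal sites. Beyond 100 kb lay 24.9% of new sites (CI 24 to 25.8) and 23.8% of the others (CI 22.5 to 25.1). The centre lay inside the gene with the nearest TSS for 35.7% of new sites (CI 34.7 to 36.7) and 35.4% of the others (CI 34.0 to 36.8). Other annotated transcript starts of protein-coding genes were within 1 kb of 7.91% of new sites (CI 7.37 to 8.49), against 18.6% of the others (CI 17.5 to 19.8). A TSS of a gene that is not protein-coding was within 1 kb of 5.11% (CI 4.67 to 5.58), against 10.6%. Among these 461 new sites, the nearest such gene was a processed pseudogene for 118, a lincRNA for 96, an antisense gene for 58 and a miRNA for 39. Within 1 kb, starts other than the 5′ end of the gene were thus near a minority of the new sites and a larger share of the others. At the 5 kb of the rule, 7327 of the 9022 new sites were left with the TSS of all transcripts. With the TSS of genes of any type, 7716 were left.

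The sequence of the new sites was intermediate in GC content and lower in CpG than that of the other distal sites. The CpG ratio of all sequence at this distance from genes was not computed. Mean GC was 54.1% ± 4.80 (SD over 9022 sites), against 60.8% ± 6.48 for the other distal sites and 41.5% for all sequence over 5 kb from a TSS. The ratio of observed to expected CpG averaged 0.264 ± 0.195 in new sites and 0.460 ± 0.280 in the others. GC of at least 50% with a CpG ratio of at least 0.6, the composition of CpG islands, was found in 5.77% of new sites (CI 5.31 to 6.28) and 31.9% of the others (CI 30.5 to 33.3). Widths did not match between the sets, so the same share was taken by width. It was 4.11% against 17.9% at 184 bp, 5.10% against 23.2% at 185 to 299 bp and 10.7% against 47.2% at 300 bp or more, lower among the new sites in each class. Distal sites listed at both earlier stages had the highest share, 50.6% (CI 47.7 to 53.6).

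Repeats covered on average 18.3% of a new site and 28.7% of another distal site, as soft-masked in the reference. At least 50% of the bases were repeat in 13.7% of new sites (CI 13 to 14.4) and 25.2% of the others (CI 24 to 26.6). Over all sequence at this distance from genes the masked share was 35.0%. The aligner options in the study's methods reported reads that mapped to several places at 1 of them, so the position of single sites inside repeats is uncertain.

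Short sequence words that differ in CpG content split the sets in the same direction as base composition did. Words were searched on both strands in the 300 bases around each centre, different words may share bases, and a match is not a binding site. The CpG-bearing GGGCGG (GC box, bound by Sp factors) was found in 10.2% of new sites (CI 9.56 to 10.8), 29.8% of the other distal sites (CI 28.4 to 31.2) and 35.7% of 32851 RefSeq promoters of the same length (build GRCm38.p6). CCGGAAG, bound by ETS factors, was found in 2.70% of new sites, 8.34% of the others and 8.86% of promoters. Both words contain CpG, and both were rarer in the new sites.

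Words without CpG were mostly as frequent in the new sites or more so. CAGATG was found in 26.3% of new sites (CI 25.4 to 27.2), 18.1% of other distal sites (CI 17.0 to 19.3) and 17.2% of promoters, and CAGCTG in 23.3%, 22.5% and 16.3%. CAGATG is the E-box form preferred by proneural factors such as Neurog2 and Neurod2. At 184 bp, 185 to 299 bp and 300 bp or more the CAGATG share was 24.7%, 27% and 25.2% of new sites, against 20.2%, 20% and 15% of the others. It thus stayed higher in each width class, although GC content differed between the sets as given above.

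For the other words the values were as follows, in the order new sites, other distal sites and promoters. TTGGCA, the core site of nuclear factor I proteins, was in 17.2%, 12.8% and 14.1%. AGGTCA, the core of nuclear receptor sites, was in 20.1%, 14.1% and 16.3%, and TGANTCA, bound by AP-1, in 7.85%, 4.46% and 7.81%. TAATTA was in 2.23%, 0.732% and 5.29%, so that the new sites lay between the other distal sites and promoters. CAGCAGG (ZIC factors) was in 15.7%, 15.3% and 10.5%, and ACAATGG (SOX factors) in 3.87%, 2.72% and 3.66%. AGATAAG, bound by GATA factors, was in 2.67%, 1.46% and 3.04%. The Ebf palindrome was rare everywhere, in 104 new sites or 1.15% (CI 0.952 to 1.39), in 1.46% of the others (CI 1.14 to 1.87) and in 0.904% of promoters.

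The 5 lists that the rule did not use were then compared with the new sites. H3K27me3 of E11.5 Ebf2-EGFP- cells overlapped 573 of them (6.35%, CI 5.87 to 6.87), against 1638 of the other distal sites (38.7%, CI 37.2 to 40.2). Distal sites acetylated at all stages had it at 66.6% (CI 63.8 to 69.3). By width the share was 4.53% against 25.1% at 184 bp, 6.01% against 33.4% at 185 to 299 bp, and 10.1% against 49.2% at 300 bp or more. The new sites were lower in each of these classes. Within 1 kb of an H3K27me3 peak of these cells lay 13.9% of new sites (CI 13.2 to 14.6) and 49.2% of the others (CI 47.7 to 50.8).

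The remaining lists touched few new sites. H3K27me3 of Ebf2-EGFP+ cells at E11.5 overlapped 78 new sites (0.865%, CI 0.693 to 1.08). The E13.5 list overlapped 68 (0.754%, CI 0.595 to 0.954), and that of E15.5 overlapped 32 (0.355%, CI 0.251 to 0.5). For the other distal sites these shares were 4.61%, 5.38% and 1.30%. H3K27ac of E11.5 Ebf2-EGFP- cells overlapped 10 new sites (0.111%, CI 0.0602 to 0.204) and 66 of the others (1.56%, CI 1.23 to 1.98). In all, 8298 new sites met none of the 5 lists, 692 met 1, 29 met 2, 1 met 3 and 2 met 4. Progenitor H3K27me3 and an H3K27me3 list of Ebf2-EGFP+ cells shared 23 new sites. The progenitor H3K27ac list and the E15.5 H3K27me3 list were the shortest of their marks, with 1386 and 1438 peaks, and a short list can touch few sites.

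**Figure D3:**
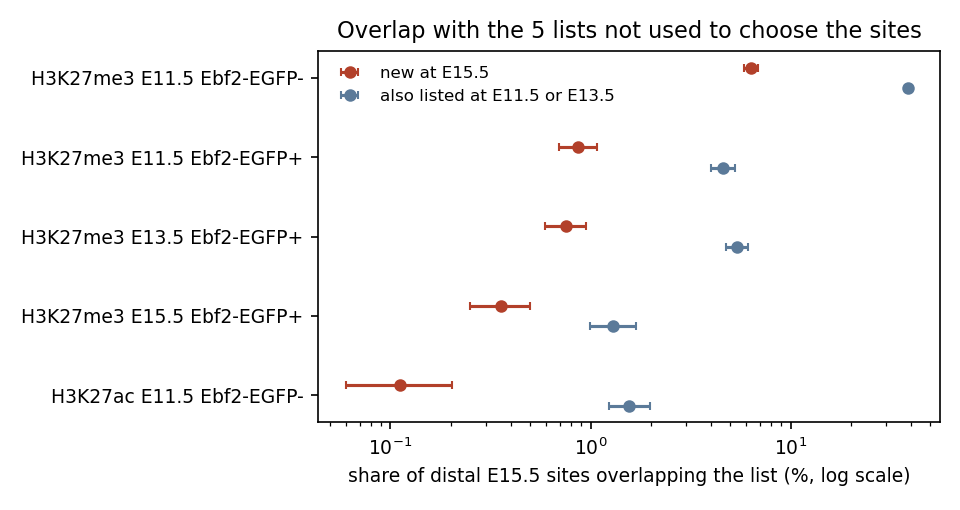
Share of distal E15.5 H3K27ac sites (x axis, %, log scale) that overlapped each of the 5 lists not used by the rule (y axis), for the new sites (red) and the sites also listed at E11.5 or E13.5 (blue). Points are shares and bars Wilson 95% intervals over sites. The new sites are lower for all 5 lists, from 0.111% to 6.35%.

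The 573 new sites with progenitor H3K27me3 differed in composition from the 8449 without. Their mean GC was 58.5% ± 5.48 against 53.8% ± 4.60, and 17.3% (CI 14.4 to 20.6) had the composition of CpG islands against 4.99% (CI 4.55 to 5.48). Exons held 25% of them (CI 21.6 to 28.7) against 14.0% (CI 13.2 to 14.7). Inside the gene with the nearest TSS lay 45.0% (CI 41.0 to 49.1) against 35.1% (CI 34.1 to 36.1). Sites in the H3K27me3 list of progenitors were thus richer in CpG and more often within genes. This list was longer than that of Ebf2-EGFP+ cells at the same age, with 48963 against 6387 peaks. Under the 5 kb limit its peaks reached 48.6% of all protein-coding TSS, against 4.96% for the shorter list. They also reached 4 of 6 housekeeping TSS. Whether all peaks of this list reflect Polycomb repression was not tested.

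The 5 widest of the 573 were those nearest to Acd and Ptma, already given, with sites at Nos1, Mef2d and Bcor. The Nos1 site, of 802 bp at chr5:117841780-117842581, lay in an exon of this gene for neuronal nitric oxide synthase, 60.7 kb from its TSS and 0.302 kb from an E11.5 H3K27ac peak. The Mef2d site, of 790 bp at chr3:88177546-88178335, covered the TSS of the antisense gene 1700113A16Rik, 35.2 kb from the TSS of Mef2d. The Bcor site, of 735 bp at chrX:12088193-12088927, lay in an intron of this gene for a component of a Polycomb complex, 71.4 kb from its TSS. All 5 had a GC content between 58.7% and 68.3% and no H3K27me3 in Ebf2-EGFP+ cells at any stage.

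The 10 new sites with progenitor H3K27ac were few enough to look at singly, and were picked after their values were seen. Those named here lay nearest to Ptchd3, Fam172a, Fgf14, Zfp516, Spaar, Sorbs2, Cacna1a, Sall1 and Nrp1. The first 3 had at least 50% of their bases repeat-masked and were also the only new sites found in 3 or more of the 5 lists. The site in an intron of Cacna1a, which encodes the pore of the P/Q-type calcium channel, had 545 bp, a GC content of 71% and progenitor H3K27me3 as well.

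The new sites were spread over all chromosomes but thin on X. Per Mb of sequence over 5 kb from a TSS there were 3.82 in all, from 2.52 on chromosome 3 to 6.12 on chromosome 11 among the autosomes, and 0.614 on X (95 sites). The other distal sites also were fewest on X, at 0.815 per Mb against 1.13 to 3.03 on autosomes. Of all distal E15.5 sites, 43.0% were new on X, against 60.7% to 74.7% on autosomes. Chromosome 12, with a density of protein-coding genes close to that of X (5.35 and 5.54 per Mb), had 3.73 new sites per Mb. At least 50% of the bases were repeat-masked in 35.8% of the new sites on X (CI 26.9 to 45.8). The sex of the embryos is not given in the labels.

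Most new sites stood alone. When sites at most 12.5 kb apart were joined, 7175 remained single and 1847 fell into 841 clusters, of which 22 held 4 sites or more. The largest cluster, at chr8:84728327-84790810, held 17 new sites over 62.5 kb across Nfix and G430095P16Rik, with 11 further E15.5 H3K27ac peaks between them. The next, at chr13:83713958-83739814, held 11 new sites over 25.9 kb, with Mef2c as the nearest protein-coding gene. A cluster of 7 lay near Endov and Nptx1 on chromosome 11, and clusters of 5 and of 4 lay near Nfib on chromosome 4. Other clusters of 4 lay near Srrm3, Fnbp1l, Zbtb18 and Prex1. The clusters were looked at after the values were seen and carry no test.

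Each new site was then assigned to the protein-coding gene with the nearest TSS, up to 100 kb away, which names a neighbour and not a target. Of the 9022 sites, 6780 had such a gene. Of the 21755 protein-coding genes, 4839 or 22.2% were nearest to at least 1 new site, and this share is the background for every gene count below. It was not matched for the amount of sequence around each TSS or for acetylation of the TSS. A gene far from other genes has more sequence in which a site is assigned to it. The number of new sites was 1 for 3512 genes, 2 for 932 and 3 or more for 395. The other distal sites were nearest to 2491 genes.

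The 15 genes with most new sites included several transcriptional regulators. Nfix, a nuclear factor I gene needed for the timing of neural differentiation, came first with 10 sites of 188 to 588 bp, all inside the gene and 9.53 to 34.8 kb from its TSS. Of these 10, 1 had progenitor H3K27me3, and 10 of the other distal E15.5 sites were nearest to Nfix too. Gse1 followed with 8 sites, all inside it. Among those with 7 sites were Foxf1, a forkhead factor of mesenchyme, Srebf1, a regulator of lipid synthesis, Zfpm1, a cofactor of GATA factors, Vav2 and Mcf2l, exchange factors for small GTPases, and G430095P16Rik. Sik1, Col5a1, Micall2, Trim8, Prex1 and Kcnj15 had 6 each. Foxf1, Vav2, Sik1, Col5a1, Micall2 and Prex1 had no other distal E15.5 site. Distal peaks listed at E11.5 or E13.5 and absent at E15.5 were not counted for any gene. Foxf1 had no H3K27ac within 5 kb of its TSS at E11.5, and Kcnj15 had none at any stage.

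Of these 15 genes, 13 had H3K27ac within 5 kb of the TSS at E15.5, all but Srebf1 and Kcnj15, against 52.7% of all protein-coding genes. The Srebf1 TSS had it at E11.5 and E13.5. H3K27me3 in progenitors was present at the TSS of 13, all but Mcf2l and Kcnj15, against 48.6% of all protein-coding genes. The 15 genes were chosen by their number of new sites, so these values are a description.

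Over all genes, TSS marks were more frequent where new sites were present. H3K27ac lay within 5 kb of the TSS at E15.5 for 61.1% of genes with a new site (CI 59.7 to 62.5), against 52.7% of all 21755 genes. At E11.5 the values were 59.4% (CI 58.0 to 60.8) against 50.4%, and at E13.5 72.7% (CI 71.5 to 74.0) against 61.4%. The 395 genes with 3 or more new sites reached 65.3%, 82.3% and 66.6% by stage. The order of the stages, highest at E13.5, was the same over all genes.

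**Figure D4:**
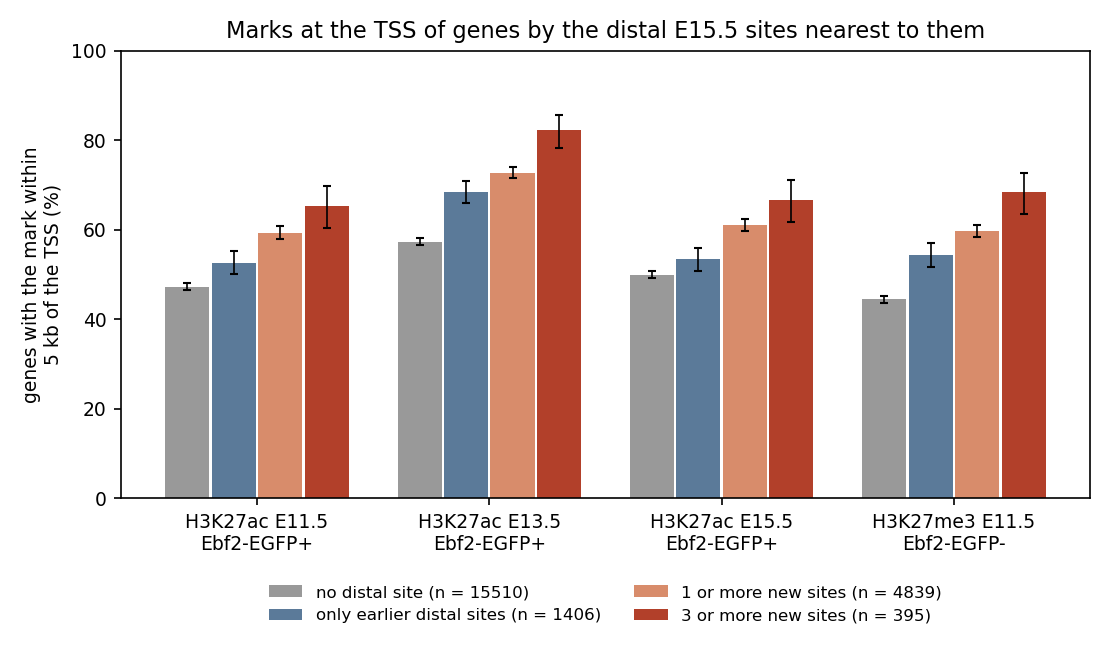
Share of protein-coding genes (y axis, %) with a peak within 5 kb of the TSS in each of 4 lists (x axis), for genes with no distal E15.5 site nearest to them, with only distal sites also listed earlier, with 1 or more new sites and, within these, with 3 or more. Bars are shares with Wilson 95% intervals over genes. In each list the share is highest for genes with 3 or more new sites.

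A TSS acetylated at E15.5 only was no more common among genes with a new site, at 3.66% (CI 3.16 to 4.22) against 4.12% of all genes. No H3K27ac at any stage was found at 13.7% of these TSS (CI 12.7 to 14.7), against 24.9% of all. Progenitor H3K27me3 was found at 59.8% (CI 58.4 to 61.1), against 48.6% of all genes, and at 68.4% (CI 63.6 to 72.7) with 3 or more new sites. Progenitor H3K27ac was found at 5.58% (CI 4.97 to 6.26), against 4.2% of all. Only a small share of genes with new distal sites therefore had a TSS that was itself new at E15.5.

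Among the 9 CR markers, 4 had a new site (44.4%, CI 18.9 to 73.3, against the background of 22.2%). Ebf3, a sister factor of Ebf2, had 2 in its introns, of 206 bp at chr7:137266759-137266964 and 415 bp at chr7:137299923-137300337. Both lay close to earlier acetylation, 0.602 kb from an E13.5 peak and 1.79 kb from an E11.5 peak. Calb2, which encodes calretinin, had 1 site of 219 bp, 15.7 kb from its TSS and 5.92 kb or more from earlier peaks. Lhx1, a LIM homeodomain factor, had 1 site of 225 bp, 24.2 kb away. Cdkn1a, which encodes the cell cycle inhibitor p21, had 2, of 232 and 336 bp. None of these 6 sites overlapped any of the other 5 lists. Reln, Trp73, Tbr1, Ebf2 and Lhx5 had none.

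The TSS of these markers did not all have a listed H3K27ac peak at E15.5. There was a peak within 5 kb of the TSS of Ebf3 and Lhx1, and none listed at Calb2 and Cdkn1a. Absence from this list of 25793 peaks, against 102881 at E13.5, is not a measured lack of the mark. Over the 9 markers it was present at 8 TSS at first, at 9 on E13.5 and at 6 in the oldest cells. Over all genes the shares were 50.4%, 61.4% and 52.7% in the same order, so that the longest list, E13.5, gave the highest value in both. These lists of CR and layer 1 genes are those of the study's text, which picked part of them by their expression in these sorted cells. They are therefore not independent of it.

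Of the 8 layer 1 genes, 5 had a new site (62.5%, CI 30.6 to 86.3). Jph3, a junctophilin that couples membranes in neurons, had 2 of 184 and 196 bp inside the gene. Sncb, which encodes beta-synuclein, had 1 of 396 bp at 7.98 kb, and Nhlh2, a neuronal helix-loop-helix factor, 1 of 213 bp at 18.1 kb. Slit1, which encodes a guidance ligand, had 1 of 213 bp in an intron only 0.153 kb from an E11.5 peak. Ppp2r2c, a regulatory subunit of protein phosphatase 2A, had 1 of 186 bp at 6.11 kb. Chst8, Brinp1 and Dnm3 had none. None of the 6 sites of this list overlapped any of the other 5 lists either.

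**Figure D5:**
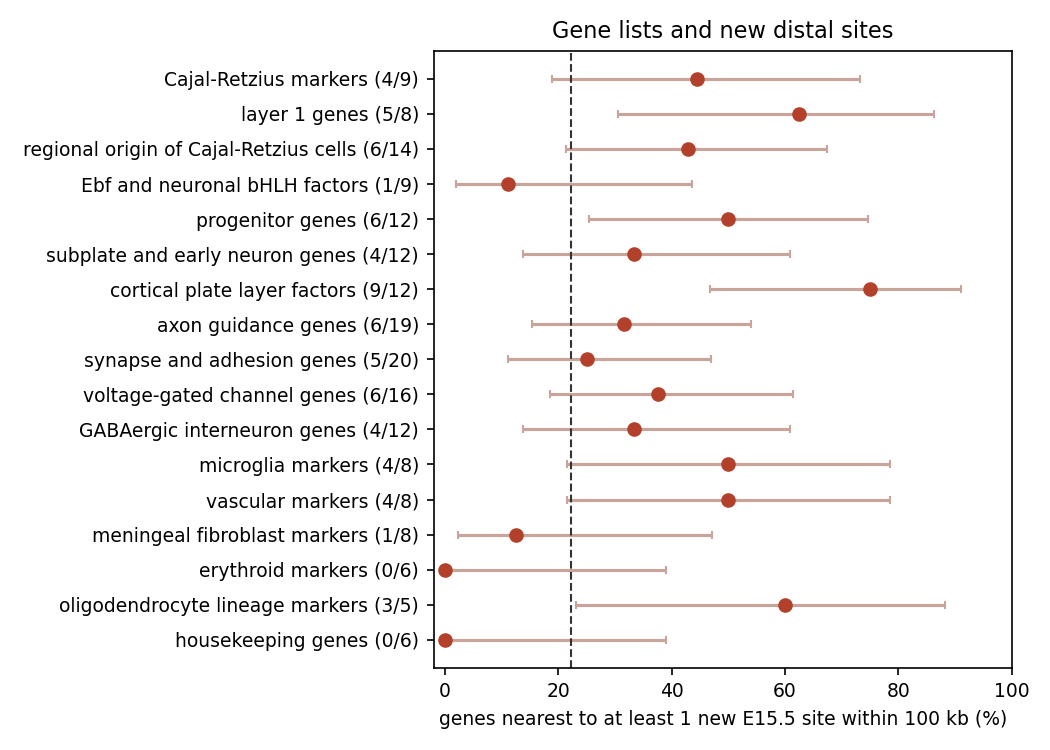
Share of the genes of each list (x axis, %) that were the nearest gene, within 100 kb, of at least 1 new distal site, with the number of genes beside each list name (y axis). Bars are Wilson 95% intervals over genes, and the dashed line is the share of all protein-coding genes, 22.2%. The intervals are wide, and that of the cortical plate layer factors, 46.8% to 91.1%, is the farthest from the line. Of these 12 genes, 7 were also nearest to another distal E15.5 site.

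Genes that mark where CR cells arise had new sites at 6 of 14 (42.9%, CI 21.4 to 67.4). Barhl2, a homeodomain factor, had 3, and Bmp7 and Nr2f2 had 2 each. The list of 9 Ebf and neuronal helix-loop-helix factors leaves out Ebf3 and Nhlh2, which had new sites and were counted in the lists above. Of these 9 only Neurod2 had any, 2 sites of 553 and 586 bp at 8.17 and 11.7 kb. These were among the wider new sites, and 4 of the other distal E15.5 sites were nearest to Neurod2 as well.

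Progenitor genes had new sites at 6 of 12 (50%, CI 25.4 to 74.6). Among them Lhx2 had 3, Sox2 had 2, and Hes1, Nes and Notch1 had 1 each. Sox2, the stem cell factor, had no listed H3K27ac peak near its TSS at E15.5, although its new sites lay 7.93 and 37.4 kb away. Of the subplate and early neuron genes, 4 of 12 had sites (33.3%, CI 13.8 to 60.9), with 2 each at Igfbpl1 and Myt1l and 1 each at Nr4a2 and Mapt.

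Transcription factors that mark the layers of the cortical plate had the highest share of all lists, 9 of 12 (75%, CI 46.8 to 91.1). Sox5, a factor of deep-layer neurons, had 5 sites of 197 to 444 bp at 20.2 to 78.2 kb. Bcl11b had 2 sites and Mef2c had 2 within 100 kb. Bcl11a, Cux1, Cux2, Rorb and Pou3f3 had 1 each. Other distal E15.5 sites were nearest to 7 of the 12 genes, against 2491 of all 21755 genes. Both kinds of distal site were thus frequent near these genes, and the high share was not particular to new sites. At the TSS of Rorb H3K27ac was listed at E13.5 and not at E15.5. The purity of the sort at E15.5 could not be checked from peak lists.

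Genes for mature neuronal functions followed. New sites were found at 6 of 19 axon guidance genes (31.6%, CI 15.4 to 54.0), 1 each at Slit3, Epha4, Sema3a, Sema6a, Nrp1 and Ntn1. They were found at 5 of 20 synapse and adhesion genes (25%, CI 11.2 to 46.9), 2 each at Nrxn2 and Cadm1 and 1 each at Snap25 and Grik2, among others. Of the voltage-gated channel genes, 6 of 16 had sites (37.5%, CI 18.5 to 61.4), led by Cacna2d3, a calcium channel subunit, with 4 of 195 to 338 bp. The intervals of these 3 lists include the background of 22.2%, as do those of the CR markers, the regional origin genes, the Ebf and helix-loop-helix factors and the subplate genes. Differences between lists were not tested.

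Markers of other cells that a sort could hold had new sites too. They were found at 4 of 12 GABAergic interneuron genes (33.3%, CI 13.8 to 60.9), with 2 at Dlx2, 2 at Nkx2-1 and 1 each at Dlx6 and Gad1. The microglia markers Spi1 (2 sites), C1qa, Csf1r and Tmem119 (1 each) made 4 of 8. The vascular markers Cdh5, Cldn5, Kdr and Pecam1, with 2 sites each, made 4 of 8 as well. Foxc1 (2 sites) was the only one of 8 meningeal markers, and Sox10, Pdgfra and Cspg4 (1 each) were 3 of 5 oligodendrocyte lineage markers. The 6 erythroid markers and the 6 housekeeping genes had none.

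The non-neuronal markers among these were also counted together. Over the 35 markers of microglia, vessels, meninges, blood and the oligodendrocyte lineage, 12 genes had 18 new sites (34.3% of genes, CI 20.8 to 50.8) and 0 had another distal E15.5 site, which 2491 of all 21755 genes had. Over the 143 genes of the 11 neuronal, progenitor and regional lists, the GABAergic genes included, 56 genes had 84 new sites (39.2%, CI 31.5 to 47.3) and 37 genes had 54 other distal sites (25.9%). Near the TSS, H3K27ac at E15.5 was found for 34.3% of the non-neuronal markers and 66.4% of the neuronal and progenitor genes, against 52.7% of all genes. It was found for 0 of 8 vascular, 3 of 8 microglia, 1 of 6 erythroid, 3 of 8 meningeal and 5 of 5 oligodendrocyte lineage markers. At E13.5 the counts were 6 of 8 vascular, 6 of 8 microglia, 3 of 6 erythroid, 5 of 8 meningeal and 5 of 5 oligodendrocyte lineage markers, against 61.4% of all genes, so most of these TSS were acetylated in the earlier and longer list. The grouping of lists was made after the values were seen, and the part of other cells in the new sites was not tested.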

How the data were processed

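The authors profiled H3K27ac and H3K27me3 by ChIP-seq in sorted Ebf2-EGFP cells, aligned reads to mm10 with Bowtie 1.1.2 allowing up to 3 mismatches, and called peaks with MACS at a p-value of 1e-05. The MACS version, the use of input libraries and the pooling of replicates are not given in the sources used here. The authors deposited 8 BED lists whose score column is 0 for every peak, so only positions were used and depth is unknown. Starts were read as counted from 0 and are printed counted from 1.

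Genes were taken from GENCODE M21 on GRCm38, with 21755 protein-coding genes. Overlap meant at least 1 shared bp. Distances were measured from the peak edge, and the nearest TSS was limited to 100 kb for gene counts. Analyses used Python 3.11.15, numpy 2.4.6, pandas 2.3.3, scipy 1.17.1 and matplotlib 3.10.9, and the interval code was tested on simulated data. Groups came from the labels, and no test was run since each group had 1 list. Alternatives varied the TSS set, the distance and width limits, the overlap, the gene models and the repeats.

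The members and gene lists were chosen with earlier results of these data known. Named by rule were the 15 genes with most sites, all CR and layer 1 genes with a site, up to 4 genes with most sites from each other list, the 5 widest sites, the 5 widest with H3K27me3 in progenitors, the 3 with most Ebf palindromes and those at the limits. Other genes and sites named were chosen after their values were seen. No columns of per-sample values were left out (0). Some genes that the rule names are not reported here.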

Additional observations from a re-analysis of the deposited data

How the results depend on the processing

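No paired analysis was possible because each group had 1 list and the results come from no test. The 5 main values were 9022 sites, 6.35% with H3K27me3 in E11.5 Ebf2-EGFP- cells, 48.2% in introns, 22.2% of genes nearest to a site and a mean GC of 54.1%, and GC moved by less than the spread between sites under every alternative run for it. Requiring no earlier peak within 5 kb left 4141 sites, with 4.83% for H3K27me3, 44.0% for introns and 10.8% for genes. Requiring at least 200 bp left 5941 sites, with 7.22% for H3K27me3 and 16.3% for genes. With the TSS of all transcripts 7327 sites were left, H3K27me3 was 5.55% and genes 17.9%. With the TSS of genes of any type 7716 sites were left and introns were 49.6%. Counting H3K27me3 only where it covered at least 50% of a site gave 3.57%, and within 1 kb of a site 13.9%. With models of protein-coding genes only, introns were 43.3%, and with no distance limit 25.8% of genes were nearest to a site. Of the 3 alternatives added after seeing the data, leaving out sites of the minimum width gave 19.2% of genes, and leaving out sites at least 50% repeat-masked gave 50.3% for introns and 20% for genes. The cause of these shifts was not tested. Unknown depth limits all values, since a site absent from an earlier list may have fallen under its peak threshold. The same holds for a TSS with no peak in the E15.5 list.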

Other observations

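The 714 new sites within 1 kb of another transcript start of a protein-coding gene had a mean GC of 57% ± 6.21 (SD) and a median width of 236 bp, against 54.1% ± 4.80 and 219 bp for all new sites. Their nearest earlier H3K27ac peak lay at a median of 1.59 kb, against 4.25 kb. The 1237 sites with at least 50% of their bases repeat-masked lay at a median of 69.9 kb from a protein-coding TSS and 10.2 kb from an earlier peak, and 63.1% of them were intergenic (95% CI 60.4 to 65.8). The 32 new sites with H3K27me3 at E15.5 had a median width of 222 bp and a mean GC of 53.3% ± 6.13, and 7 of them were at least 50% repeat-masked.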
